A study of Mus musculus with 24 samples.

Results

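The collagen genes were taken as all genes of the count table whose symbol had the form of Col, a number, the letter a and a number, a rule that read names and no measured value. They were 44 of 24537 genes, each with 1 copy in the annotation. By the kind of assembly their chains form, 11 were fibrillar, 6 belonged to basement membrane networks, 6 to beaded filaments, 4 to short chain networks and anchoring fibrils, 9 were fibril associated, 2 were multiplexins, 4 were transmembrane and 2 were others (Col26a1 and Col28a1).

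RNA-seq of whole extensor digitorum longus (EDL, predominantly fast-twitch) and soleus (SOL, predominantly slow-twitch) muscles of 2-month-old mice was analysed. The 12 groups were Acta1-Cre+/4Fhet (Cre+) and Acta1-Cre-/4Fhet (Cre-) mice given Dox (1 mg/ml in drinking water) for 3 lengths of time (2.5, 5.5 and 8.5 days) in each muscle, with 2 libraries per group and 24 in all. Both genotypes drank Dox and carried the Dox-driven 4F cassette (Oct4, Sox2, Klf4 and c-Myc, OSKM) and an rtTA behind a LoxP-STOP-LoxP block, so the control mice differed in lacking Cre. Cre was driven by the promoter of Acta1, the actin of myofibers, whereas collagen transcripts of all cells in the muscle were counted. The 4F cassette was inserted at the Col1a1 locus on a single allele in mice of all groups. Its effect on Col1a1 was not tested, since no library lacked it.

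Collagens are trimeric proteins of the extracellular matrix. Types I and III build the fibrils of tendon and of the connective tissue around muscle fibres, types V and XI take part in starting those fibrils, type IV forms the sheet-like network of the basement membrane that wraps each fibre and capillary, and type VI forms beaded filaments close to it. In muscle most collagen is made by fibroblasts and tendon cells, with basement membrane chains also made by endothelium and, for some chains, by the fibres. A bulk library cannot tell fewer cells of a type from less RNA per cell.

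Libraries held 36088781 to 54679082 counts (median 44243960), so that a gene with a count of 0 could still lie at 0.0549 to 0.0831 CPM by counting error alone. Levels are given as FPKM, which scales each count by the exon length of the gene and the depth of the library. Pou5f1, which encodes Oct4, was at most 0.0896 FPKM in the 12 Cre- libraries and 17.5 and 70.5 FPKM in Cre+ EDL at 2.5 days, 76.2 and 57.7 at 8.5 days, 5.02 and 9.62 in Cre+ SOL at 2.5 days and 12.2 and 6.19 at 8.5 days. At 5.5 days it was 1.02 and 27.7 FPKM in Cre+ EDL and 0.0786 and 0.387 in Cre+ SOL, so that some libraries labelled Cre+ held little OSKM, and the study set that day aside. The fast-fibre gene Myh4 was at 2695 to 7905 FPKM in EDL and 21.1 to 521 in SOL, and the slow-fibre gene Myh7 at 1848 to 3700 in SOL and 4.82 to 88.6 in EDL. Ddx3y, a gene of the Y chromosome, was at 9.74 to 16.1 FPKM in all libraries of 2.5 days and at most 0.0601 in those of 5.5 and 8.5 days, and Xist was the other way around (at most 0.0585, then 6.36 to 20.6). The labels give no sex, so day 2.5 and the sex of the mice cannot be told apart in any comparison of 2.5 days with another day.

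Collagen transcripts made up between 0.0877% and 1.54% of all counts. Of the 44 genes, 3 had a mean level of at least 100 FPKM over the 24 libraries, 14 of at least 10 and 27 of at least 1, and 17 lay below 1 FPKM. The 3 most abundant were the type I chains Col1a2 (383 FPKM) and Col1a1 (287) and the type III chain Col3a1 (111), which together held 40.4% to 80.2% of all collagen counts. The type VI chains Col6a1 (58.4) and Col6a2 (49.9), the type IV chains Col4a1 (38.0) and Col4a2 (33.2) and Col11a2 (19.2), a chain of the fibrillar type XI, came next. The most abundant members of the other classes were Col15a1 (multiplexin, 14.5 FPKM), Col22a1 (fibril associated, 11.3), Col8a2 (short chain, 3.68), Col23a1 (transmembrane, 2.28) and Col26a1 (other, 2.76). Of the 44 genes, 43 passed the filter on low counts, and Col10a1, with 44 reads over all libraries, did not.

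**Figure D1:**
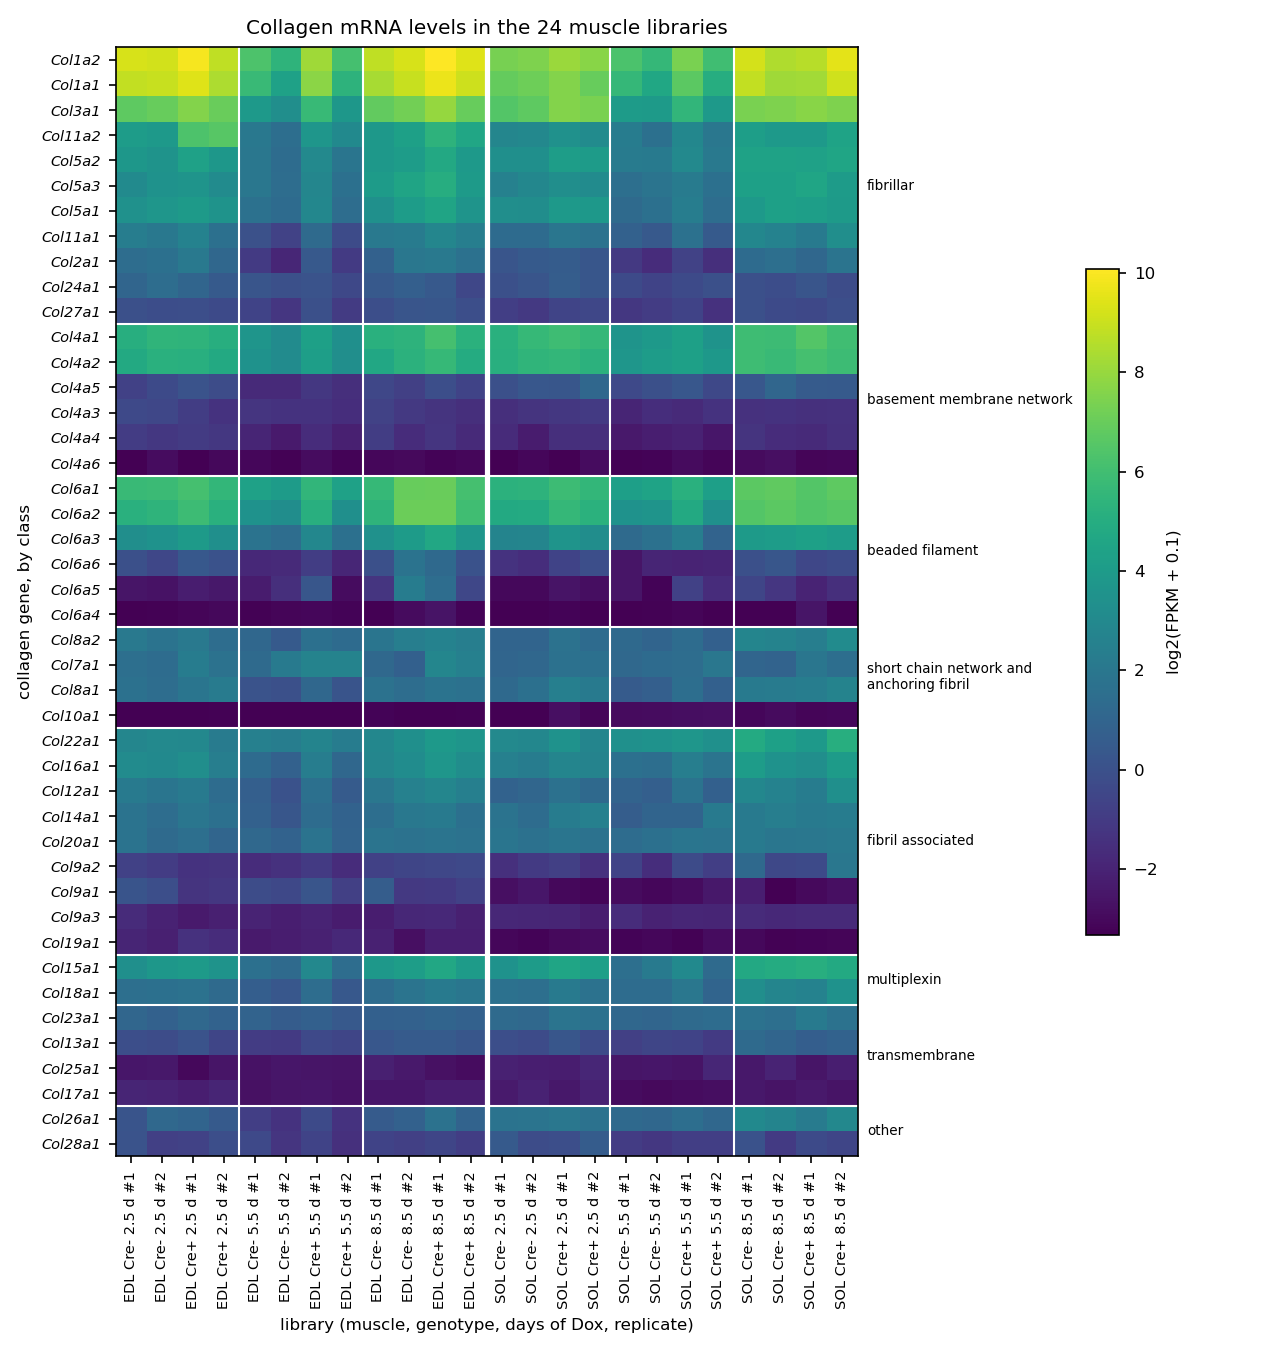
Level of each of the 44 collagen genes (rows, grouped by class) in each of the 24 libraries (columns, by muscle, day and genotype), as log2(FPKM + 0.1). The chains of types I, III, IV and VI formed the brightest rows, and the columns of 5.5 days were dimmer in most of them.

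Promoter sequences are shown for 4 of the collagen genes the comparisons turned on, as the 250 bases before the RefSeq start on the GRCm38.p6 build. They are written 5′ to 3′ on the plus strand, which is the strand of all 4 genes. Col4a3 and Col1a1 are not shown, since they had no promoter entry. Col11a2 and Col7a1 were the collagens that rose with OSKM in EDL muscles, and Col1a2 and Col3a1 were among the 3 most abundant and were both low at 5.5 days. Capitals mark each occurrence, on either strand, of CCAAT, of GGGCGG (the core of the Sp1 site), of CACGTG (the E-box that binds c-Myc) and of ATGCAAAT (the octamer that binds Oct4).
Col11a2, chr17:34038888-34039137: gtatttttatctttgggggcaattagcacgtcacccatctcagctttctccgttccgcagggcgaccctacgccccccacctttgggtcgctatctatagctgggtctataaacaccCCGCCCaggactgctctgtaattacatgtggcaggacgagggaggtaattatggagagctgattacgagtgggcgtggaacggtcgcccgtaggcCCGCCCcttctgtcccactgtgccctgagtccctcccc
Col7a1, chr9:108953336-108953585: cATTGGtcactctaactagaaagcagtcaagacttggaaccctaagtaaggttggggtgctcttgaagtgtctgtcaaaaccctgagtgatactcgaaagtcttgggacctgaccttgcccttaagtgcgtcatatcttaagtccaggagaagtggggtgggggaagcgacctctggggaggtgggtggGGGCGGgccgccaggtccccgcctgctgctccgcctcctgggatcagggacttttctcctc
Col1a2, chr6:4505368-4505617: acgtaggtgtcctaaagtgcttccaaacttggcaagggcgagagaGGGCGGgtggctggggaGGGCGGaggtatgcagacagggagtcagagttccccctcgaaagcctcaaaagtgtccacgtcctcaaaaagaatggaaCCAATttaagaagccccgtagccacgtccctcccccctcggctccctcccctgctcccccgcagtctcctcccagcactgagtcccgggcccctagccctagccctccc
Col3a1, chr1:45311288-45311537: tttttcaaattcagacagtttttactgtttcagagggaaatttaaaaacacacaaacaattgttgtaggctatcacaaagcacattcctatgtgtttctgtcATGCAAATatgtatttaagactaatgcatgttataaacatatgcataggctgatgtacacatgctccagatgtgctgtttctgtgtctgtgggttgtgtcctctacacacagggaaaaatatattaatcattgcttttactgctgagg
The Col7a1 window lies upstream of a RefSeq start that differs from the start in the count table. The window of Col11a2 held GGGCGG and that of Col7a1 held CCAAT and GGGCGG, that of Col1a2 held CCAAT and GGGCGG, and that of Col3a1 held the octamer. Of the 44 collagen genes, 35 had a promoter entry. CCAAT was found in 11 of the 35 (31.4%) against 33.8% of all 32851 windows of this length, GGGCGG in 20 (57.1%) against 32.7%, the octamer in 2 (5.71%, Col3a1 and Col25a1) against 1.6%, and CACGTG in 0 against 6.02%. A match describes letters in this window and is not a measured binding site.

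To ask how collagen transcripts responded to OSKM in myofibers, Cre+ muscles were compared with Cre- muscles. In EDL muscles Col11a2 rose at 2.5 and at 8.5 days, Col7a1 rose at 8.5 days and Col4a3 fell at both, and these 3 were the only collagens called at either day. A gene was called when its log2 fold change was beyond 0.5 in size and its p value in edgeR's quasi-likelihood test, adjusted over all genes tested by Benjamini-Hochberg, was under 0.05. At 2.5 days, 2 of the 43 collagens tested were called, where 24% of all 15372 genes tested were called. At 8.5 days, 3 of 43 were called, where 14.1% of all genes were. The abundant type I, III, IV and VI chains were not among them. Without Cre+ replicate 1 of 2.5 days 5 were called at that day, adding Col16a1, Col20a1 and Col24a1, and without Cre+ or Cre- replicate 1 of 8.5 days Col7a1 alone was called at 8.5 days.

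Col11a2 encodes a chain of type XI collagen, known from cartilage and also present in other tissues. Its level was 17.2 and 14.5 FPKM in Cre- EDL at 2.5 days and 80.1 and 98.1 in Cre+ EDL. At 8.5 days the levels were 14.3 and 19.4 in Cre- and 40.7 and 24.7 in Cre+ EDL, and at 5.5 days 4.03 and 2.79 in Cre- and 13.3 and 8.04 in Cre+ EDL. Both Cre+ libraries lay above both Cre- libraries at each of the 3 days. Taken by day, this held in FPKM for 52.1%, 34.8% and 40.3% of all genes at 2.5, 5.5 and 8.5 days. The log2 fold change was 2.16 ± 0.25 (SE, 4.46-fold, adjusted p = 9.73e-05) at 2.5 days, 0.76 ± 0.24 (1.70-fold, adjusted p = 0.0489) at 8.5 days and 1.5 ± 0.34 (adjusted p = 0.0744, not called) at 5.5 days. The call at 8.5 days rested on single libraries: without Cre+ replicate 1 the log2 fold change was 0.43 (adjusted p = 0.417) and without Cre- replicate 1 it was 0.55 (adjusted p = 0.291). At 2.5 days it was called with any 1 of the 4 libraries left out (2.06 to 2.26). In SOL muscles Col11a2 was 7.07 and 7.52 FPKM at 2.5 days, 4.91 and 3.01 at 5.5 days and 18.5 and 15.2 at 8.5 days in Cre- mice and 10.8 and 8.81 FPKM at 2.5 days, 7.41 and 3.87 at 5.5 days and 15.2 and 21.8 at 8.5 days in Cre+ mice, and the Cre+ over Cre- log2 fold changes of 0.27 (adjusted p = 0.672), 0.45 (adjusted p = 1.0) and 0.10 (adjusted p = 0.999) did not pass.
Markers of cartilage, the tissue best known for type XI collagen, summed to 3.73 to 4.01 FPKM in Cre- and 3.16 to 5.31 in Cre+ EDL at 2.5 days over 5 genes, with 0 of the 4 tested called, and those of bone were at most 0.389 FPKM.

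Col7a1 encodes the chain of the anchoring fibrils that tie basement membranes to the tissue beneath. At 8.5 days it was at 2.25 and 1.63 FPKM in Cre- EDL and 7.01 and 5.64 in Cre+ EDL, a log2 fold change of 1.53 ± 0.21 (2.88-fold, adjusted p = 0.000537), which was called with any 1 of the 4 libraries left out (1.32 to 1.76). At 2.5 days the levels were 2.90 and 2.56 in Cre- and 4.79 and 3.26 in Cre+ EDL (0.24 ± 0.21, adjusted p = 0.411, not called), and at 5.5 days 2.40 and 4.51 in Cre- and 6.24 and 6.20 in Cre+ EDL (0.70, adjusted p = 0.393). In SOL muscles Col7a1 was 1.99 and 2.13 FPKM at 2.5 days, 2.17 and 2.43 at 5.5 days and 1.98 and 1.83 at 8.5 days in Cre- mice and 3.13 and 3.02 FPKM at 2.5 days, 2.63 and 3.86 at 5.5 days and 3.796 and 2.799 at 8.5 days in Cre+ mice. In EDL at 2.5 days the order of the genotypes depended on the scale: both Cre+ libraries lay above both Cre- libraries in FPKM, as for 52.1% of all genes, and overlapped them once FPKM was scaled by TMM, the correction for library composition that edgeR's test used. None of the 3 comparisons in SOL was called, with log2 fold changes of 0.43 (adjusted p = 0.4) at 2.5 days, 0.43 (adjusted p = 1.0) at 5.5 days and 0.75 (adjusted p = 0.235) at 8.5 days.

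Col4a3 encodes a chain of the minor type IV network, best known from the basement membrane of the kidney, and its level in muscle was low. It was at 0.670 and 0.612 FPKM in Cre- EDL at 2.5 days and 0.433 and 0.285 in Cre+ EDL, and at 0.518 and 0.364 in Cre- and 0.311 and 0.256 in Cre+ EDL at 8.5 days. All Cre+ values lay below the Cre- values of the same day, as for 15.4% of all genes at 2.5 days and 15.5% at 8.5 days. The log2 fold change was -1.16 ± 0.24 (2.23-fold lower, adjusted p = 0.00355) at 2.5 days, called with any 1 of the 4 libraries left out (-1.54 to -0.85). At 8.5 days it was -0.82 ± 0.24 (adjusted p = 0.039), and the call was lost without Cre+ replicate 1 (-0.91, adjusted p = 0.14), Cre+ replicate 2 (-0.73, adjusted p = 0.17) or Cre- replicate 1 (-0.56, adjusted p = 0.258). At 5.5 days the levels were 0.314 and 0.284 in Cre- and 0.283 and 0.243 in Cre+ EDL. SOL levels were 0.254 and 0.305 FPKM at 2.5 days, 0.157 and 0.234 at 5.5 days and 0.272 and 0.284 at 8.5 days in Cre- mice and 0.343 and 0.387 FPKM at 2.5 days, 0.198 and 0.288 at 5.5 days and 0.265 and 0.275 at 8.5 days in Cre+ mice, and the genotypes overlapped at 5.5 and 8.5 days, while at 2.5 days both Cre+ values lay above the Cre- values.

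**Figure D2:**
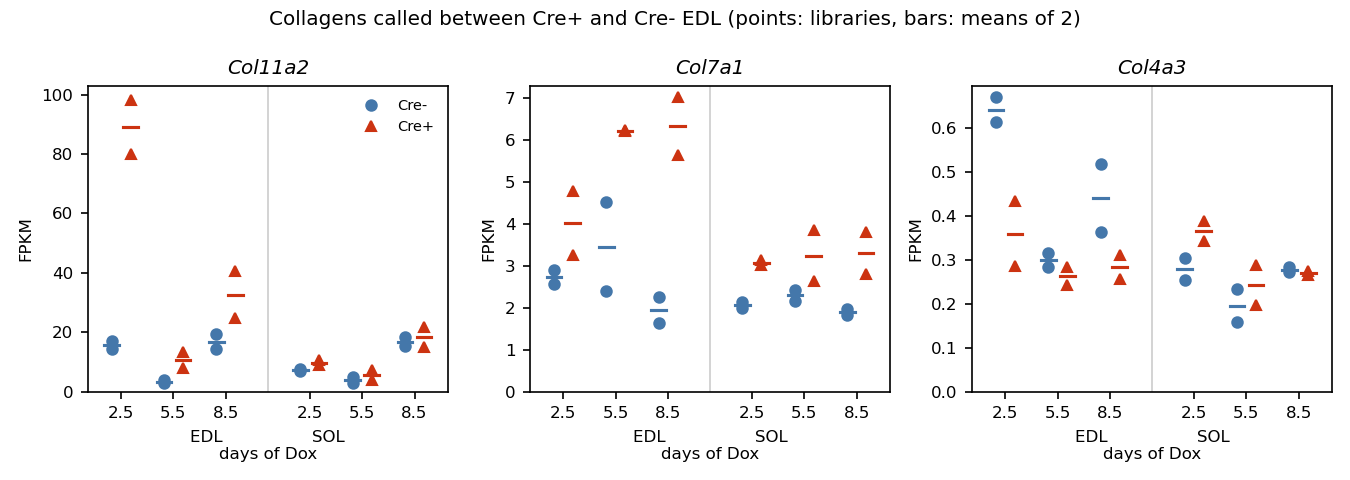
FPKM of Col11a2, Col7a1 and Col4a3 in each library (points) of Cre- and Cre+ mice by muscle and day, with bars at the means of the 2 libraries. In EDL at 2.5 days the 2 Cre+ values of Col11a2 (80.1 and 98.1) stand above the Cre- values (17.2 and 14.5).

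In SOL muscles and at 5.5 days, 0 collagens were called in any comparison of Cre+ with Cre-. In edgeR, 5 of 43 collagens had an unadjusted p under 0.05 in SOL at 2.5 days and 1 at 8.5 days. Of all 15372 genes tested, 2053 and 1015 had such a p value, and 0.384% and 0.631% were called. At 5.5 days, 7 of 43 collagens had an unadjusted p under 0.05 in EDL and 2 in SOL. Of all 15478 genes tested, 1307 and 597 had such a p value, and 0.304% and 0.0% were called. DESeq2 on the same libraries called 1 (Col8a1) in SOL at 2.5 days, 0 in SOL at 8.5 days, 1 (Col11a2) in EDL at 5.5 days and 0 in SOL at 5.5 days. In SOL at 2.5 days the median log2 fold change of the collagens was 0.34 against 0.02 for all genes, and both Cre+ libraries lay above both Cre- libraries for 27 of 43 collagens, against 43.8% of all genes, both in FPKM. At 5.5 days the medians were 0.497 against -0.00803 in EDL and 0.377 against 0.00623 in SOL. Positive changes at that day were found for 34 of 43 collagens in EDL and 39 of 43 in SOL. The Cre+ SOL libraries of 5.5 days held Pou5f1 at 0.0786 and 0.387 FPKM. In SOL at 8.5 days the medians were -0.00527 and -0.00608.

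When 2.5 and 8.5 days were averaged, 6 collagens were called in EDL muscles, where 24.1% of all genes were, a comparison added after the values had been seen. Beside Col11a2 (1.46 ± 0.17, adjusted p = 4.42e-05), Col7a1 (0.88 ± 0.15, adjusted p = 0.000493) and Col4a3 (-0.99 ± 0.17, adjusted p = 0.000696), these were Col25a1, Col24a1 and Col9a1, all lower in Cre+. Scaled by library size alone, 4 were called, 2 higher and 2 lower. Col25a1, a transmembrane collagen of nerve and muscle, was at 0.0767 and 0.0832 FPKM in Cre- and 0.0227 and 0.0673 in Cre+ EDL at 2.5 days, and 0.124 and 0.0883 against 0.0536 and 0.0371 at 8.5 days (log2 fold change -1.29 ± 0.34, adjusted p = 0.0109). Its level rested on 8 to 52 counts per library. Col24a1, a minor fibrillar collagen, was at 1.957 and 2.66 FPKM in Cre- and 2.005 and 1.27 in Cre+ EDL at 2.5 days, and 1.25 and 1.56 against 1.24 and 0.625 at 8.5 days, so in FPKM the genotypes overlapped at 2.5 days, but not once scaled by TMM. It had a log2 fold change of -0.80 ± 0.22 (adjusted p = 0.0126), lost without Cre+ replicate 2 (-0.64, adjusted p = 0.0544) or Cre- replicate 2 (-0.67, adjusted p = 0.0554) of 2.5 days. Col9a1, a fibril-associated chain, was at 1.04 and 0.8203 FPKM in Cre- and 0.304 and 0.352 in Cre+ EDL at 2.5 days, and 1.48 and 0.376 against 0.382 and 0.504 at 8.5 days, with overlap at 8.5 days. Its log2 fold change was -1.53 ± 0.50 (adjusted p = 0.0291), and it was called in 1 of the 8 fits that left out a library: the adjusted p was 0.0681, 0.0734, 0.0758, 0.0522, 0.101, 0.0556 and 0.192 without Cre+ replicates 1 and 2 and Cre- replicates 1 and 2 of 2.5 days, Cre+ replicates 1 and 2 and Cre- replicate 1 of 8.5 days. In SOL the same average gave 0 calls in edgeR, where 1.47% of all genes were called, and 1 (Col7a1) in DESeq2. In edgeR, 3 collagens had an unadjusted p under 0.05 in SOL, against 2499 of all 15372 genes tested. The smallest adjusted p values there were those of Col8a1 (0.50, adjusted p = 0.0592) and Col7a1 (0.59, adjusted p = 0.0696).

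Whether the response differed between muscles was tested as the EDL change minus the SOL change. At 2.5 days 2 collagens were called, where 4.25% of all genes were: Col11a2 (1.88 ± 0.34, 3.69-fold, adjusted p = 0.0121) rose more in EDL, and Col4a3 (-1.39 ± 0.34, adjusted p = 0.0423) differed the other way, a call that was lost when libraries were scaled by size alone. With the muscles paired by replicate number 3 were called, adding Col24a1. Col11a2 lost its call without Cre- EDL replicate 2 (1.79, adjusted p = 0.0618) or Cre+ SOL replicate 2 (1.75, adjusted p = 0.0689). Col4a3 kept its call only without Cre+ EDL replicate 1, and its value was -1.09 (adjusted p = 0.143) without Cre+ EDL replicate 2, -1.35 (0.125) and -1.43 (0.101) without Cre- EDL replicates 1 and 2, -1.48 (0.0773) and -1.30 (0.148) without Cre+ SOL replicates 1 and 2 and -1.29 (0.144) and -1.5 (0.0879) without Cre- SOL replicates 1 and 2, with the adjusted p in parentheses. At 8.5 days 0 collagens were called in edgeR, where 0.592% of all genes were, and DESeq2 called 0. In edgeR, 1 collagen had an unadjusted p under 0.05 at 8.5 days, against 1729 of all 15372 genes tested. Between 2.5 and 8.5 days the response differed for 0 collagens in either muscle in edgeR, as for 0.0% of all genes. In edgeR, 2 collagens had an unadjusted p under 0.05 in each muscle. Of all 15372 genes tested, 1469 in EDL and 403 in SOL had such a p value. DESeq2 called 2 (Col11a2 and Col7a1) in EDL and 0 in SOL. For Col11a2 the EDL difference of 8.5 from 2.5 days was -1.39 ± 0.34 (adjusted p = 0.233) and for Col7a1 1.29 ± 0.29 (adjusted p = 0.212), and Col7a1 was called when Cre+ EDL replicate 1 of 2.5 days was left out.

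**Figure D3:**
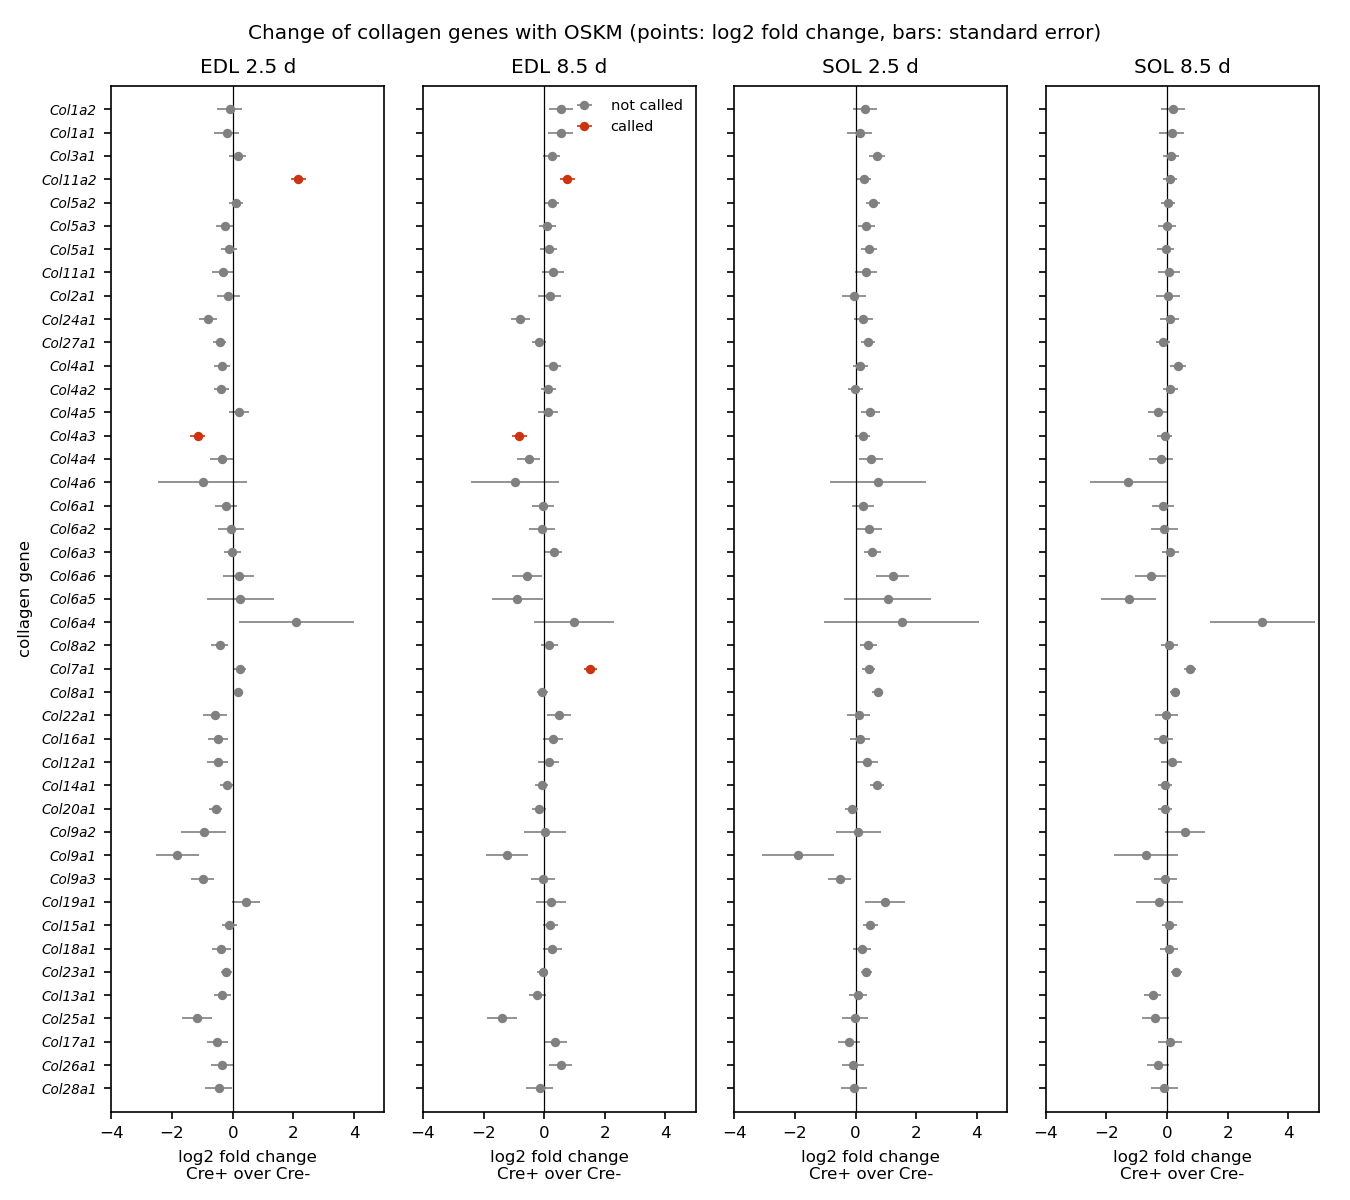
Log2 fold change of Cre+ over Cre- (points, with bars of 1 SE) for each collagen tested, in EDL and SOL at 2.5 and 8.5 days, with called genes in red. Called genes appear in the EDL panels only: Col11a2 and Col4a3 at 2.5 days, and those with Col7a1 at 8.5 days.

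Over the whole family the median log2 fold change in EDL depended on the scale, as did that of all genes. On both scales the median of the collagens lay below that of all genes at 2.5 days and above it at 8.5 days. At 2.5 days 10 of 43 collagens had a positive and 33 a negative log2 fold change, with a median of -0.32 against -0.05 for all genes after TMM scaling. When libraries were scaled by their size alone the medians were -0.00295 for the collagens and 0.28 for all genes, and 3 collagens were called, 2 higher and 1 lower. At 8.5 days the median of the collagens was 0.13 against -0.02, and with size alone 0.33 against 0.16, with 2 collagens called higher and Col4a3 no longer called. The summed share of collagen counts was 0.822% and 0.837% in Cre- and 1.26% and 0.710% in Cre+ EDL at 2.5 days, and 0.648% and 0.965% in Cre- and 1.54% and 0.951% in Cre+ EDL at 8.5 days, so the groups overlapped at both days.

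For the most abundant chains the 2 libraries of a group could lie far apart. Col1a1 was at 469 and 489.9 FPKM at 2.5 days, 53.5 and 20.1 at 5.5 days and 325 and 489 at 8.5 days in Cre- EDL. Cre+ EDL had Col1a1 at 701 and 341 FPKM at 2.5 days, 214 and 40.7 at 5.5 days and 819.7 and 544 at 8.5 days. SOL muscles had Col1a1 at 122 and 142 FPKM at 2.5 days, 48.9 and 25.1 at 5.5 days and 457 and 286 at 8.5 days in Cre- mice, and at 196 and 127 FPKM at 2.5 days, 106 and 32.6 at 5.5 days and 294 and 549 at 8.5 days in Cre+ mice. In EDL the genotypes overlapped at 2.5 and 5.5 days, and at 8.5 days both Cre+ libraries lay higher in FPKM, as for 40.3% of all genes, but overlapped the Cre- libraries once scaled by TMM. Col1a2 was at 626 and 585 FPKM at 2.5 days, 81.2 and 42.7 at 5.5 days and 439.8 and 614 at 8.5 days in Cre- EDL. Cre+ EDL had Col1a2 at 947 and 454 FPKM at 2.5 days, 286 and 70.3 at 5.5 days and 1087 and 687 at 8.5 days. SOL muscles had Col1a2 at 164 and 181 FPKM at 2.5 days, 78.5 and 48.2 at 5.5 days and 604 and 364 at 8.5 days in Cre- mice, and at 266 and 211 FPKM at 2.5 days, 167 and 62.8 at 5.5 days and 394 and 741 at 8.5 days in Cre+ mice. As for Col1a1, its partner in type I collagen, the genotypes of EDL overlapped at all 3 days once scaled by TMM. Col3a1 was at 109 and 124 FPKM at 2.5 days, 14.7 and 9.65 at 5.5 days and 118 and 153 at 8.5 days in Cre- EDL. Cre+ EDL had Col3a1 at 197 and 128 FPKM at 2.5 days, 52.02 and 13.7 at 5.5 days and 245 and 125 at 8.5 days. SOL muscles had Col3a1 at 90.1 and 108 FPKM at 2.5 days, 16.5 and 15.8 at 5.5 days and 167 and 178 at 8.5 days in Cre- mice, and at 192 and 167 FPKM at 2.5 days, 46.1 and 14.4 at 5.5 days and 209.5 and 177 at 8.5 days in Cre+ mice. For this type III chain, too, the genotypes of EDL overlapped at all 3 days once scaled by TMM.

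Type VI collagen is assembled from the chains of Col6a1 and Col6a2 together with a further chain such as that of Col6a3. Col6a1 was at 54.2 and 55.6 FPKM at 2.5 days, 19.96 and 16.3 at 5.5 days and 49.8 and 127 at 8.5 days in Cre- EDL. Cre+ EDL had Col6a1 at 70.5 and 46.7 FPKM at 2.5 days, 45.5 and 20.2 at 5.5 days and 131 and 69.7 at 8.5 days. SOL muscles had Col6a1 at 39.7 and 40.6 FPKM at 2.5 days, 19.1 and 21.5 at 5.5 days and 104 and 111 at 8.5 days in Cre- mice, and at 57.8 and 47.3 FPKM at 2.5 days, 37 and 18.8 at 5.5 days and 91.7 and 107 at 8.5 days in Cre+ mice. In EDL the genotypes overlapped at 2.5 and 8.5 days. At 5.5 days both Cre+ EDL libraries lay higher in FPKM, as for 34.8% of all genes, but overlapped the Cre- libraries once scaled by TMM. The highest EDL values were those of 1 Cre- and 1 Cre+ library of 8.5 days. Col6a2 was at 36.3 and 42.8 FPKM at 2.5 days, 11.3 and 9.33 at 5.5 days and 42.6 and 134 at 8.5 days in Cre- EDL. Cre+ EDL had Col6a2 at 58.3 and 36.5 FPKM at 2.5 days, 34.9 and 10.3 at 5.5 days and 133 and 62.6 at 8.5 days. SOL muscles had Col6a2 at 28.03 and 29.4 FPKM at 2.5 days, 11.4 and 12.1 at 5.5 days and 89.1 and 104 at 8.5 days in Cre- mice, and at 48.4 and 37.8 FPKM at 2.5 days, 28 and 10.6 at 5.5 days and 87.95 and 97.6 at 8.5 days in Cre+ mice. The same pair of EDL libraries was the highest for this chain. The common type IV network is made from the chains of Col4a1 and Col4a2. Col4a1 was at 33.6 and 42.96 FPKM at 2.5 days, 12.4 and 8.62 at 5.5 days and 35.8 and 40.9 at 8.5 days in Cre- EDL. Cre+ EDL had Col4a1 at 41.8 and 33.4 FPKM at 2.5 days, 19.7 and 10.2 at 5.5 days and 70.4 and 37.5 at 8.5 days. SOL muscles had Col4a1 at 36.8 and 50.1 FPKM at 2.5 days, 12.1 and 14.97 at 5.5 days and 60.4 and 57.6 at 8.5 days in Cre- mice, and at 59.5 and 48.1 FPKM at 2.5 days, 19.4 and 11.9 at 5.5 days and 91.3 and 63.2 at 8.5 days in Cre+ mice. In EDL the genotypes overlapped at all 3 days. Col4a2 was at 28.7 and 36.8 FPKM at 2.5 days, 11.4 and 8.63 at 5.5 days and 26.4 and 38.6 at 8.5 days in Cre- EDL. Cre+ EDL had Col4a2 at 35.1 and 27.9 FPKM at 2.5 days, 18.1 and 9.9 at 5.5 days and 50.97 and 30.5 at 8.5 days. SOL muscles had Col4a2 at 35.1 and 43.1 FPKM at 2.5 days, 13.2 and 16.8 at 5.5 days and 60.98 and 55.2 at 8.5 days in Cre- mice, and at 47.5 and 38.6 FPKM at 2.5 days, 19.9 and 14.01 at 5.5 days and 70.7 and 57.6 at 8.5 days in Cre+ mice. Its genotypes overlapped at all 3 days in both muscles. Of these 7 genes no comparison of Cre+ with Cre- at a single day passed the test.

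The genes that act on collagen chains were followed in lists of the pathway, whose counts are to be read against the 24% of all genes called in EDL at 2.5 days and the 14.1% at 8.5 days. Of 19 genes of chain modification and folding, 4 rose in Cre+ EDL at 2.5 days and 0 fell: P3h2 (2.03 ± 0.35, adjusted p = 0.00106) and P3h1 (0.71), which hydroxylate prolines, Crtap (0.78), the partner of P3h1, and Colgalt1 (0.57), which adds galactose. P3h2 was at 1.58 and 0.855 FPKM in Cre- and 4.94 and 7.58 in Cre+ EDL, without overlap, as for 52.1% of all genes with Cre+ above. Its change was larger in EDL than in SOL (1.94 ± 0.47, adjusted p = 0.0386). At 8.5 days 3 of the 19 rose, the lysyl hydroxylase Plod3 (1.00 ± 0.21, adjusted p = 0.00721), the prolyl hydroxylase subunit P4ha1 (0.69) and P3h1 (0.62). Of 7 genes of secretion and transcription and 14 of cross-linking and fibril assembly, 0 were called in EDL at either day. Among 8 genes of propeptide removal, Pcolce2 (1.61) rose at 2.5 days and 0 at 8.5 days. Of 11 basement membrane partners, Lamc1 rose (0.75 and 0.61 at 2.5 and 8.5 days), Lama2 rose at 8.5 days (0.94), Lama5 fell (-1.26 and -0.92) and Agrn fell at 2.5 days (-0.68). Of 12 collagen receptors tested, Cspg4 (1.21 and 2.13), also a mural marker, and Itgb1 (0.60 and 0.89) rose at both days. In SOL muscles Cspg4 was the only gene of these lists called at 2.5 or at 8.5 days taken singly (0.88 and 1.24). Beside these, 5 of 7 endothelial markers fell in Cre+ EDL at 2.5 days (summed 125 to 135 FPKM in Cre- and 106 to 110.2 in Cre+), as did 2 of 6 mural and 2 of 4 fast-fibre markers, while 0 of 9 fibroblast and 0 of 8 tendon markers were called. At 8.5 days the 8 tendon markers summed to 618 and 718 FPKM in Cre- and 1021 and 1168 in Cre+ EDL, with a median log2 fold change of 0.46, 8 of 8 positive and 0 called. Their part in the collagen results was not tested.

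Between the control muscles, Col9a1 and Col19a1 were higher in EDL and Col26a1 and Col4a5 higher in SOL, in the comparison of EDL over SOL averaged over the 3 days of Cre- mice (6 libraries a muscle). Of 43 tested, 13 were called, 9 higher in EDL and 4 higher in SOL, a share of 30.2% near the 24.9% of all genes called, and the median log2 fold change of the family was 0.10 against -0.02 for all genes. With the muscles paired by replicate number 14 were called, adding Col1a1 and Col1a2 as higher in EDL and losing Col6a5 (1.82, adjusted p = 0.0973). The 9 genes higher in EDL were low in level, and none had a median above 1.40 FPKM in EDL. The average can hide differences between days. In Cre- mice all collagens together held 0.829% of counts in EDL and 0.366% in SOL at 2.5 days (means of 2). They held 0.115% and 0.131% at 5.5 days and 0.807% and 0.862% at 8.5 days. The muscles were not tested against each other at single days. Col9a1, a fibril-associated chain of cartilage, had the largest difference, at 0.376 (lowest), 0.80 (median) and 1.48 (highest) FPKM in EDL and 0, 0.0381 and 0.115 in SOL (log2 fold change 4.33 ± 0.48, adjusted p = 1.25e-06), with 60 to 205 counts per EDL library and 0 to 17 per SOL library. Col19a1, another fibril-associated collagen and its neighbour on chromosome 1 (4944 bases between the genes), was at 0.0460, 0.118 and 0.164 in EDL and 0.00459, 0.0141 and 0.0199 in SOL (3.09 ± 0.38, adjusted p = 4.19e-06). In these 2 genes the muscles did not overlap, as in 6.85% of all genes with EDL above SOL.
Col24a1 was at 0.883, 1.40 and 2.66 in EDL and 0.555, 0.832 and 1.05 in SOL (0.97 ± 0.18, adjusted p = 0.000252). Of the minor type IV chains, Col4a3 was at 0.284, 0.441 and 0.670 in EDL and 0.157, 0.263 and 0.305 in SOL (0.91 ± 0.15, adjusted p = 8.78e-05). Its head-to-head partner Col4a4, with 71 bases between the genes, was at 0.0985, 0.293 and 0.436 against 0.0916, 0.166 and 0.306 (0.73 ± 0.25, adjusted p = 0.0228). Both chains pair with that of Col4a5, which was the other way around, at 0.202, 0.492 and 0.705 in EDL and 0.668, 1.02 and 2.04 in SOL (-1.31 ± 0.20, adjusted p = 4.46e-05). The neighbouring beaded-filament chains, Col6a6 (0.192, 0.743 and 3.33 against 0.0716, 0.267 and 1.08) and Col6a5 (0.0592, 0.177 and 4.94 against 0.00994, 0.0445 and 0.595), were higher in EDL, with log2 fold changes of 1.21 ± 0.33 (adjusted p = 0.00623) and 2.15 ± 0.81 (adjusted p = 0.0402). The transmembrane Col17a1 (0.0534, 0.0753 and 0.165 against 0.0252, 0.0712 and 0.147, 0.59 ± 0.22, adjusted p = 0.0374) and the fibrillar Col27a1 (0.342, 0.815 and 1.08 against 0.344, 0.443 and 0.869, 0.58 ± 0.20, adjusted p = 0.0264) overlapped over most of their ranges.
The other 3 genes higher in SOL had higher levels there. Col26a1, a secreted collagen outside the main classes, was at 0.284, 1.19 and 2.22 FPKM in EDL and 2.10, 3.39 and 8.07 in SOL (-1.88 ± 0.24, adjusted p = 6.95e-06). Col22a1, a collagen of the junction between muscle and tendon, was at 5.0, 7.05 and 10.01 in EDL and 7.25, 10.9 and 29.1 in SOL (-0.78 ± 0.20, adjusted p = 0.00455). Col18a1, a basement membrane multiplexin and the source of endostatin, was at 1.14, 2.71 and 3.45 in EDL and 2.59, 2.98 and 9.65 in SOL (-0.74 ± 0.22, adjusted p = 0.0123). The highest SOL values of Col22a1 and Col18a1 were those of libraries of 8.5 days.
Leaving out each of the 12 libraries in turn, 9 of the 13 calls held throughout. Col6a5 kept its call only without EDL replicate 1 of 5.5 or 8.5 days or SOL replicate 1 of 5.5 or 8.5 days, and without EDL replicate 2 of 8.5 days its log2 fold change was 1.14 (adjusted p = 0.218), against 1.89 to 2.19 (adjusted p = 0.0664 to 0.101) in the other 7 fits that lost it. Col17a1 kept its call only without EDL replicate 1 of 5.5 days, SOL replicate 2 of 2.5 days or SOL replicate 1 of 8.5 days (otherwise 0.50 to 0.66, adjusted p = 0.0506 to 0.104). Col4a4 lost its call without EDL replicate 1 of 5.5 or 8.5 days, SOL replicate 2 of 2.5 or 8.5 days or SOL replicate 1 of 5.5 days (0.56 to 0.67, adjusted p = 0.0593 to 0.0903). Col27a1 lost its call without EDL replicate 1 of 2.5 or 5.5 days, EDL replicate 2 of 8.5 days, SOL replicate 2 of 2.5 or 8.5 days or SOL replicate 1 of 5.5 days (0.46 to 0.57, adjusted p = 0.0526 to 0.0995). Scaled by library size alone, 7 collagens were higher and 6 lower in EDL. Schwann cell markers were higher in EDL (5 of 5, summed 62.0 to 186 FPKM against 25.6 to 107) and adipocyte (4 of 4) and satellite cell markers (4 of 5) higher in SOL, and 2 of the 4 cartilage markers tested were higher in EDL and 1 higher in SOL. Their part in the collagen differences was not tested.

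**Figure D4:**
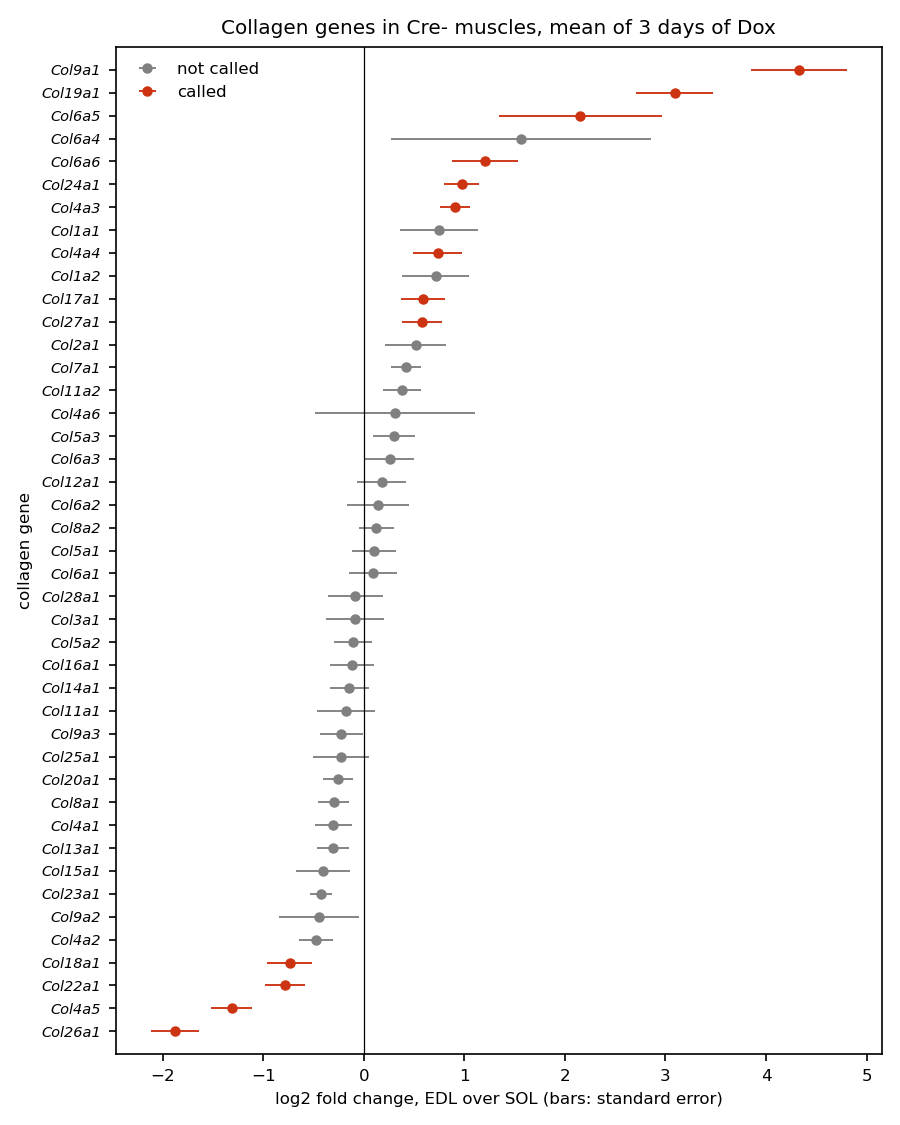
Log2 fold change of EDL over SOL in Cre- mice (points, with bars of 1 SE) for each of the 43 collagens tested, called genes in red. Col9a1 (4.33) and Col19a1 (3.09) lie farthest to the EDL side and Col26a1 (-1.88) farthest to the SOL side.

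In Cre- mice, collagen levels were low at 5.5 days in both muscles. This comparison, 5.5 days against the mean of 2.5 and 8.5 days, was added after the values had been seen. In EDL 24 of 43 collagens were called (55.8%), 23 lower at 5.5 days and Col7a1 higher, where 5.74% of all genes were called and 4.14% were called lower. In SOL 20 were called (46.5%), all lower, where 6.54% of all genes were called and 4.25% called lower. The median log2 fold change of the collagens was -1.27 in EDL, against 0.02 for all genes, and -1.15 in SOL. In EDL both 5.5-day libraries lay below all 4 libraries of the other days for 34 of the 43, against 26.0% of all genes.

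The fibrillar chains led the list. Col1a1 in Cre- EDL went from 469 and 489.9 FPKM at 2.5 days to 53.5 and 20.1 at 5.5 days and was 325 and 489 at 8.5 days (log2 fold change -3.44 ± 0.70, 10.8-fold lower, adjusted p = 0.00987). Col3a1 was at 109 and 124, 14.7 and 9.65, and 118 and 153 FPKM on the same days (-3.22 ± 0.51, 9.32-fold lower, adjusted p = 0.00366), and Col1a2 fell likewise (-3.04 ± 0.58, 8.23-fold lower, adjusted p = 0.00808). In SOL, Col3a1 fell most among these 3 (-2.90 ± 0.50, 7.46-fold lower, adjusted p = 0.00465), followed by Col1a1 (-2.48 ± 0.66, 5.58-fold lower, adjusted p = 0.0308) and Col1a2 (-2.09 ± 0.55, adjusted p = 0.0308). Of the fibrillar genes 9 of 11 were lower in EDL and 8 of 11 in SOL. Other falls in EDL included Col2a1 (-3.17), Col11a1 (-2.48), Col11a2 (-2.11), Col5a1 (-2.06) and Col5a2 (-1.94), and the beaded-filament chains Col6a6 (-2.52), Col6a2 (-2.38) and Col6a1 (-1.80).
In the basement membrane class, Col4a1 fell by 1.72 ± 0.30 and Col4a2 by 1.55 ± 0.27 on the log2 scale in EDL, and 3 of 6 basement membrane genes were called lower in EDL and 2 of 6 in SOL. Of the fibril-associated genes 2 of 9 were called lower in each muscle, of the beaded-filament genes 4 of 6 in each, of the multiplexins 1 of 2 in each (Col15a1, -2.21 in EDL and -2.35 in SOL), of the transmembrane genes 1 of 4 in EDL and 2 of 4 in SOL, and of the 3 short chain genes tested 2 in EDL and 1 in SOL. Col7a1 was the exception in EDL, at 2.90 and 2.56, 2.40 and 4.51, and 2.25 and 1.63 FPKM on the 3 days, so its groups overlapped (0.74 ± 0.22, adjusted p = 0.0463), and it was not called when libraries were scaled by size alone (28 lower and 0 higher). Called lower in both muscles were 18 collagens, with 5 more in EDL (Col11a1, Col12a1, Col26a1, Col4a5 and Col8a2) and 2 more in SOL (Col14a1 and Col17a1), and the difference between muscles was not tested.
As a share of all counts, the collagens held 0.829% in Cre- EDL at 2.5 days, 0.115% at 5.5 days and 0.807% at 8.5 days (means of 2), and 0.366%, 0.131% and 0.862% in Cre- SOL.

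**Figure D5:**
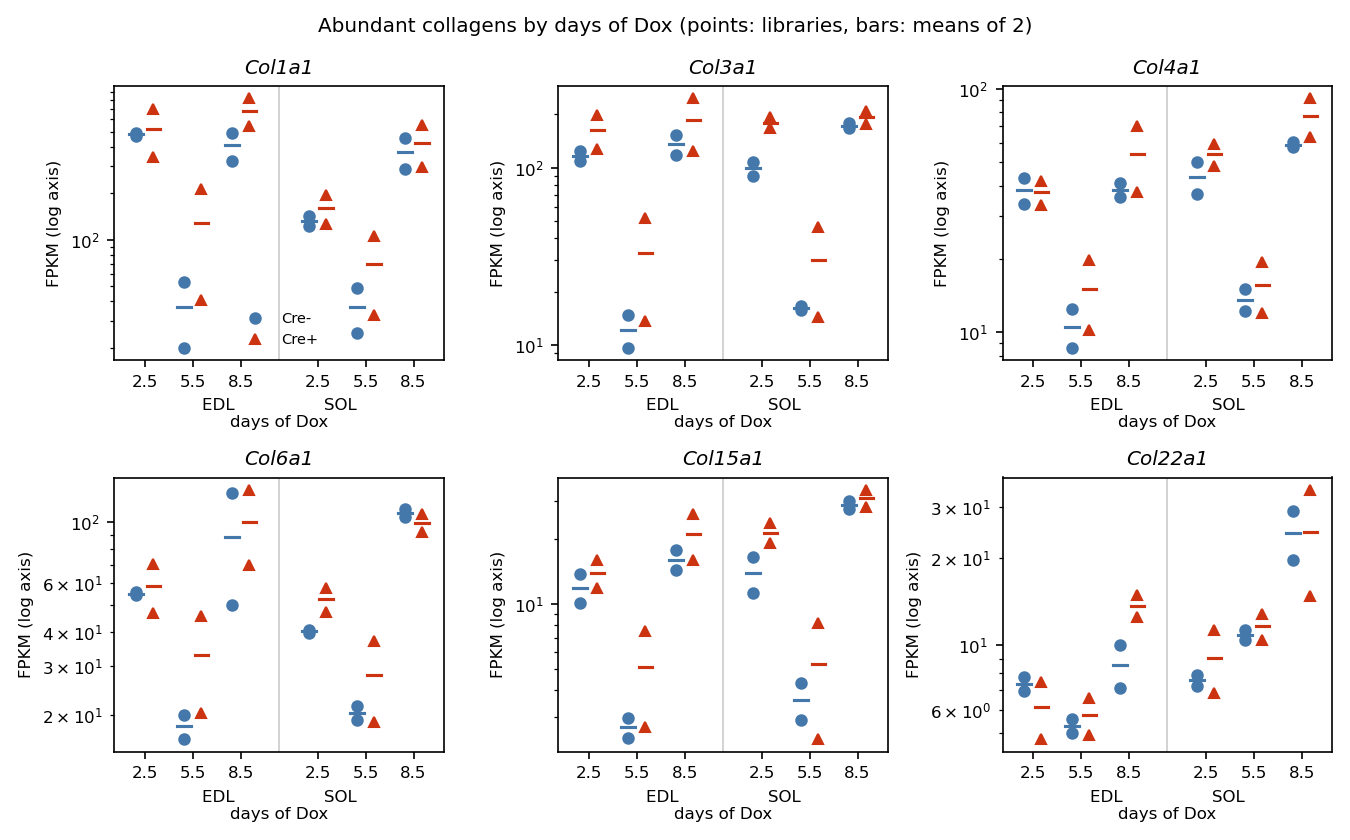
FPKM (log axis) of Col1a1, Col3a1, Col4a1, Col6a1, Col15a1 and Col22a1 by day of Dox in Cre- and Cre+ EDL and SOL muscles, with points for libraries and bars for the means of 2. In Cre- EDL, Col1a1 drops to 53.5 and 20.1 FPKM at 5.5 days.

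The calls rested on few libraries. In EDL 0 collagens were called without 5.5-day replicate 2 and 9 without 5.5-day replicate 1, and in SOL 0 without 5.5-day replicate 1, 5 without 5.5-day replicate 2 (Col15a1, Col3a1, Col4a1, Col4a2 and Col5a1) and 13 without 2.5-day replicate 2. Against 2.5 days alone 18 collagens were called in EDL and 5 in SOL (Col17a1, Col3a1, Col4a1, Col4a2 and Col5a1), and against 8.5 days alone 24 and 24. The counts against single days and with a library left out were not set against the share of all genes called in the same fits. They therefore cannot be told from a change in calls across all genes. Other genes of the matrix were low on the same day. Of the pathway lists, 8 of 19 genes of chain modification, 3 of 7 of secretion, 4 of 8 of propeptide removal, 7 of 14 of cross-linking, 8 of 11 basement membrane partners and 5 of 12 receptors were called lower in EDL (6, 4, 2, 6, 7 and 4 in SOL), among them the collagen chaperone Serpinh1 (-1.78 ± 0.32, adjusted p = 0.00584), the collagen-binding Sparc (-2.50) and the cross-linking enzyme Loxl2 (-2.88). Of the markers of collagen-making cells, 2 of 9 fibroblast and 3 of 8 tendon genes were called lower in EDL (4 and 2 in SOL), with 0 of 7 endothelial, 0 of 6 mural and 0 of 6 macrophage genes in EDL, and 1 of 7 endothelial and 4 of 5 satellite cell genes lower in SOL. Satellite cell markers (0 of 5 called in EDL) summed to 6.15 and 6.24 FPKM in Cre- EDL at 2.5 days, 2.99 and 3.27 at 5.5 days and 5.34 and 5.93 at 8.5 days. Fibroblast markers summed to 872 and 1479 FPKM in Cre- EDL at 2.5 days, 903 and 909 at 5.5 days and 1355 and 1375 at 8.5 days. Dcn (-0.43, adjusted p = 0.2), Pdgfra (-0.40, adjusted p = 0.264) and Pecam1 (-0.19, adjusted p = 0.523), which mark fibroblasts and endothelium, did not pass, and the tendon gene Tnmd did (-1.97). The part of cell makeup in the collagen levels of 5.5 days was not tested.

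Between 2.5 and 8.5 days in Cre- mice, collagens were higher at 8.5 days in SOL. Of 43, 12 were called higher and 0 lower (27.9%), where 3.63% of all genes were called and 2.78% called higher, and the median log2 fold change was 1.01 against 0.00 for all genes. For 33 of 43 both libraries of 8.5 days lay above both of 2.5 days, against 29.6% of all genes. Among the fibrillar chains, Col5a3, of type V, was at 5.94 and 7.35 FPKM at 2.5 days and 19.4 and 19.4 at 8.5 days (1.51, adjusted p = 0.0178). Col5a2, of the same type, was at 10.1 and 10.3 FPKM at 2.5 days and 21.1 and 20.9 at 8.5 days (1.00, adjusted p = 0.0371). Col11a2 was at 7.07 and 7.52 FPKM at 2.5 days and 18.5 and 15.2 at 8.5 days (1.18, adjusted p = 0.0229). In each of the 3 both libraries of 8.5 days lay above both of 2.5 days.
The largest changes were in other classes. Col12a1, a fibril-associated collagen of tendon and muscle sheaths, was at 1.73 and 2.02 FPKM at 2.5 days and 7.26 and 5.99 at 8.5 days (1.79, adjusted p = 0.0216). Col8a2, a short chain collagen that forms networks, was at 1.896 and 1.92 FPKM at 2.5 days and 6.78 and 6.29 at 8.5 days (1.74, adjusted p = 0.00795), and its partner Col8a1 was at 2.34 and 2.97 FPKM at 2.5 days and 4.41 and 4.76 at 8.5 days (0.75, adjusted p = 0.0327). Col22a1 was at 7.92 and 7.25 FPKM at 2.5 days and 29.1 and 19.8 at 8.5 days (1.66, adjusted p = 0.0374). Of the 12 genes called, Col8a1 alone rose by less than 1 on the log2 scale. Col16a1, a further fibril-associated chain, was at 5.703 and 4.84 FPKM at 2.5 days and 16.9 and 11.1 at 8.5 days (1.39, adjusted p = 0.0399). Col13a1, a transmembrane collagen of the neuromuscular junction, was at 0.829 and 0.734 FPKM at 2.5 days and 2.42 and 1.98 at 8.5 days (1.46, adjusted p = 0.0189). The multiplexins both rose. Col18a1 was at 3.11 and 2.85 FPKM at 2.5 days and 9.65 and 6.72 at 8.5 days (1.43, adjusted p = 0.0263). Col15a1, of the outer basement membrane of fibres and capillaries, was at 11.2 and 16.5 FPKM at 2.5 days and 27.5 and 29.8 at 8.5 days (1.01, adjusted p = 0.0451). Col6a3, the longest type VI chain, was at 6.55 and 6.79 FPKM at 2.5 days and 15.8 and 17.2 at 8.5 days (1.27, adjusted p = 0.0323). Neither type I chain, Col1a1 (1.47, adjusted p = 0.0737) or Col1a2 (adjusted p = 0.0679), was called. In all, 28 of 43 collagens had an unadjusted p under 0.05, against 2970 of all 15372 genes tested.
Leaving out either SOL Cre- library of 2.5 days removed all calls (0 of 43), 1 (Col8a2) was left without 8.5-day replicate 1, and 6 without 8.5-day replicate 2. DESeq2 called 22 and the fit of all 24 libraries 6, counts that were not set against the share of all genes called in the same fits. SOL Cre- libraries of 8.5 days also held liver transcripts (4 of 4 liver markers higher), with Alb at 6.40 and 43.8 FPKM against 0.304 and 0.215 at 2.5 days. In Cre+ SOL of 8.5 days Alb was at 0.423 and 0.482 FPKM. In EDL of 8.5 days it was at 2.44 and 3.68 in Cre- and 0.378 and 0.320 in Cre+ libraries. Of other lists, 2 of 9 fibroblast, 3 of 8 tendon and 7 of 14 cross-linking genes were higher in SOL. The part of liver transcripts and of these genes in the collagen rise was not tested, and sex and day cannot be told apart. The part of liver transcripts in the comparisons of genotypes at 8.5 days was not tested either.
In EDL, 8 of 43 collagens had an unadjusted p under 0.05, against 1859 of all 15372 genes tested. Of the collagens 1 was called, Col6a5 (5.30 ± 1.07, adjusted p = 0.0432), where 0.748% of all genes were. Its level was 0.0710 and 0.0592 FPKM at 2.5 days and 0.323 and 4.94 at 8.5 days, the last from a single library with 1895 counts. Without 8.5-day replicate 2 the value was 2.24 (adjusted p = 0.136), and without 8.5-day replicate 1 Col6a6 was called beside it. The call was also lost without either library of 2.5 days (5.41, adjusted p = 0.283, and 5.20, adjusted p = 0.299).

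In all, 8 collagens were called in no comparison, among them Col10a1, which did not pass the filter and was not tested. The lowest of the family were Col10a1, Col6a4 and Col4a6, with 44, 106 and 123 counts over all 24 libraries. Of the 44 genes, 21 overlapped another gene, 5 of them a protein-coding gene. Overlap was scored on whole RefSeq gene spans, whereas reads were counted on exons. Among the 5 were Col4a1 and Col4a2 (22 shared bases, head to head). Col4a3 was another, by a RefSeq span of Col4a4, though 71 bases lay between the 2 in the count table. Because the strand setting of the counting is not stated, the reads of overlapping genes may be shared between neighbours.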

How the data were processed

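PolyA RNA of whole muscles, EDL and SOL, was sequenced. The authors aligned the reads with STAR (version 2.5.3a per the labels' processing notes) to mm10, and counted reads on RefSeq exons with HOMER. The deposited values are raw counts per gene, without normalization, with replicates kept apart. Per the labels the libraries were stranded and single-end, and the strand setting of the counting is not given in the sources used here.

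FPKM was computed here from the counts, exon length and library total. Tests used edgeR 4.0.16 in R 4.3.3 (quasi-likelihood, TMM, filter with a minimum count of 10, Benjamini-Hochberg over all genes), fitted on the 16 libraries of 2.5 and 8.5 days (15372 genes) or, where 5.5 days or the mean of 3 days entered, on all 24 (15478 genes). DESeq2 1.42.0 was an alternative. The study describes the 2 libraries of a group as biologically independent samples. An exact permutation test of 2 against 2 cannot go below p = 0.333. The scripts were tested on simulated data.

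The rule for named genes was the 8 most abundant collagens, the most abundant of each class and every collagen called, up to 12 per comparison, with Pou5f1 for OSKM. Other genes were named only where a result turned on them. The members and lists were chosen with earlier results of these data known. The comparisons of 5.5 days with the other days and of the mean of 2.5 and 8.5 days were added after values were seen. Same-numbered EDL and SOL libraries deviated together (correlations of 0.173 to 0.445 in all 6 pairs), and the numbers were taken to pair the muscles. Same-numbered Cre- libraries of 2.5 and 8.5 days, which were of different mice, gave 0.248 in EDL and 0.23 in SOL. Correlations of this size therefore do not show that EDL and SOL came from the same mouse. Promoter sequences came from a RefSeq table on GRCm38.p6.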

Additional observations from a re-analysis of the deposited data

Results flagged for a closer look

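The change from Cre- to Cre+ at 2.5 days differed between the muscles for Col11a2 (EDL minus SOL log2 fold change of 1.88, adjusted p = 0.0121) and for Col4a3 (-1.39, adjusted p = 0.0423), each in edgeR's test of the difference itself. These were 2 of 43 collagens, where 4.25% of all genes were called. As given above, either call could be lost with a single library left out. The values then ranged from 1.745 to 2.036 for Col11a2 and from -1.779 to -1.085 for Col4a3. With libraries scaled by size alone Col4a3 was not called. Col11a2 rose in EDL (80.1 and 98.1 FPKM in Cre+ against 17.2 and 14.5 in Cre-) and was at 10.8 and 8.81 against 7.07 and 7.52 in SOL. Col4a3 was lower in both Cre+ EDL libraries and higher in both Cre+ SOL libraries than in the Cre- libraries.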

How the results depend on the processing

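With 2 libraries per group, single libraries decided many calls, and genes near 0.1 FPKM rested on few counts. Under 167 other settings the count of called collagens stayed within 1.5 times in 141, and of 104 counts with a library left out in 80. Of 1349 values of named genes under other settings, 263 lost their call and 0 changed direction. The cause of these moves was not tested. Counts under other settings were not set against the share of all genes called in the same fits. With an absolute log2 fold change over 1, 1 collagen (Col7a1) was called in EDL at 8.5 days, 6 between EDL and SOL and 3 (Col11a2, Col25a1 and Col9a1) in the EDL mean. Library size alone gave 1 (Col11a2) for the difference between muscles at 2.5 days, 2 (Col7a1 and Col8a1) in the SOL mean and 1 (Col11a2) in EDL at 5.5 days. Without a filter 4 (Col9a1 and Col24a1 added) were called in EDL at 2.5 days, 20 between 8.5 and 2.5 days in SOL, the same 2 in the SOL mean and Col11a2 as the 1 in EDL at 5.5 days, and with at least 10 counts in every library 0 between 8.5 and 2.5 days in EDL. DESeq2 on the same libraries called 1 in SOL at 2.5 days, 2 for the difference between days in EDL, 22 between 8.5 and 2.5 days in SOL, 1 in the SOL mean and 1 in EDL at 5.5 days. The fit of 24 libraries called the same 4 in EDL at 2.5 days and, between 8.5 and 2.5 days, 0 in EDL and 6 in SOL. On the 4 libraries alone edgeR called 1 (Col7a1) in EDL at 8.5 days, and DESeq2 called 1 (Col11a2) in EDL at 5.5 days, 6 in SOL at 2.5 days, 1 (Col7a1) in SOL at 8.5 days and 1 (Col6a5) in SOL at 5.5 days. Against 2.5 days alone, 5.5 days gave 5 in SOL. As ratios of counts in place of FPKM, the chain ratios were 0.846 (Col1a1 over Col1a2), 1.05 (Col5a1 over Col5a2) and 0.456 (Col6a3 over Col6a1).

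Leaving out each library in turn, the counts ranged from 2 to 5 in EDL at 2.5 days, 1 to 3 in EDL at 8.5 days, 4 to 7 in the EDL mean, 0 to 2 and 0 to 0 for the difference between muscles at 2.5 and 8.5 days, 0 to 1 and 0 to 0 for that between days in EDL and SOL, 10 to 13 between EDL and SOL, 0 to 2 and 0 to 6 between 8.5 and 2.5 days in EDL and SOL, and 0 to 25 and 0 to 18 for 5.5 days in EDL and SOL. They were 0 throughout for Cre+ over Cre- in SOL and in EDL at 5.5 days. With the replicate block that pairs the muscles, 14 collagens were called between EDL and SOL (12 of the 13, with Col1a1 and Col1a2 added), 3 (Col24a1 added) for the difference between muscles at 2.5 days and 0 at 8.5 days. The numbers did not pair the genotypes (correlations of -0.169 to 0.0578) or all days (-0.0419 to 0.248). With a replicate block across genotypes 1 collagen (Col7a1) was called in EDL at 8.5 days, 3 in EDL at 2.5 days and 5 in the EDL mean, and across days 1 and 14 between 8.5 and 2.5 days in EDL and SOL and 27 and 22 for 5.5 days.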

Other observations

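The proportions of chains that assemble into 1 molecule were described without a test, as ratios of FPKM over the 24 libraries. Col1a1 over Col1a2, the chains of type I collagen, had a median of 0.744 (0.470 to 0.837), with 0.767 in Cre- libraries of 2.5 days, 0.572 at 5.5 days and 0.770 at 8.5 days. Col1a1 was thus lower relative to its partner in the libraries in which both were low. Col4a1 over Col4a2, of type IV, had a median of 1.09 (0.852 to 1.38) and Col5a1 over Col5a2, of type V, a median of 0.828 (0.521 to 1.09). Among the type VI chains, Col6a1 over Col6a2 had a median of 1.29 (0.945 to 1.97) and Col6a3 over Col6a1 a median of 0.166 (0.0975 to 0.226). Col3a1 over Col1a1, the type III against the type I chain, had the widest range of the 6 ratios as a fold, with a median of 0.364 (0.229 to 1.31). It was 0.232 to 0.375 in the 4 EDL libraries of 2.5 days and 0.736 to 1.31 in the 4 SOL libraries of that day, without overlap, and the ranges of the muscles overlapped at 5.5 and 8.5 days.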
